A study of Homo sapiens with 3 samples.

Results

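The genes described here are CXCR4, the other chemokine receptors and chemokines grouped with it, and the cytokine gene MIF, as measured in SH-SY5Y, a human neuroblastoma cell line with sympathetic neuroblast features. They are the rows of the deposited table whose Ensembl identifiers map in GENCODE 29 to 10 listed symbols, out of 59152 gene names in the table. Receptors account for 4 of them (CXCR4, ACKR3, CCR2, CXCR2) and ligands for 6 (CXCL12, MIF, CCL2, CXCL8, CX3CL1, CXCL14). All 10 were found. The study sequenced stranded mRNA libraries from 3 separate flasks of the line, harvested at about 60% confluency, with 500 ng of total RNA per library. The flasks form 1 group, with no treatment, genotype change or second line named, grown in serum-containing medium. Every value is therefore a level in this line in culture, and the spread between libraries is a spread between flasks of the same line. Levels are FPKM (fragments scaled by transcript length and library size), so genes of different length can be set side by side.

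Chemokines are small secreted proteins that guide migrating cells by forming gradients, and they act on receptors that couple to inhibitory G proteins. CXCL12 is the classical ligand of CXCR4, and ACKR3 is an atypical receptor that binds CXCL12 and removes it from the surroundings without classical G protein signalling. The pair CXCL12 and CXCR4 directs the migration of neural crest cells and of blood stem cells, and CXCR4 is studied in neuroblastoma for its link to spread to bone marrow. MIF is not a chemokine by structure, but it can engage CXCR4 and CXCR2 besides its own receptor CD74. CCL2 and CXCL8 are inducible chemokines that attract monocytes through CCR2 and neutrophils through CXCR2.

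The RefSeq promoter windows of 4 members are shown first, because they set the most abundant receptor and ligand among the members beside genes listed at 0. CXCR4 and MIF are the abundant receptor and ligand. CXCL12 is the CXCR4 ligand that was listed at 0, and CXCL8 is an inducible chemokine that was also listed at 0. Each run is the 250 bases before the RefSeq transcription start, 5′ to 3′ on the gene's own strand, from the RefSeq table of build GRCh38.p14. The windows lie at chr2:136118150-136118399 on the minus strand for CXCR4, chr22:23894133-23894382 on the plus strand for MIF, chr10:44385098-44385347 on the minus strand for CXCL12 and chr4:73740319-73740568 on the plus strand for CXCL8. RefSeq and GENCODE 29 starts differ: by the GENCODE coordinates given with each gene, the MIF and CXCL12 windows lie inside the gene and the CXCR4 and CXCL8 windows overlap its 5′ end. Capitals mark the motif of NRF1 (the longer run of capitals, a palindrome) and the TATA motif (TATAAA) in CXCR4, GC boxes (GGGCGG, in CXCL12 on the other strand and so read as CCGCCC) in MIF and CXCL12, and the AP-1 (TGACTCA), NF-kB (GGNNNTTCC) and TATA motifs in CXCL8. CXCR4 also holds GC boxes and an NF-kB match, left in lower case.
CXCR4: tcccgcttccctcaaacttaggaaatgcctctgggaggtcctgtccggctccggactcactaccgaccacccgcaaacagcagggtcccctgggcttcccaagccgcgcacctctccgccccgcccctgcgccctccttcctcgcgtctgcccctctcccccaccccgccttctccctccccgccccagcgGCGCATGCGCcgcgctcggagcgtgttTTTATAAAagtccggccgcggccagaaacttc
MIF: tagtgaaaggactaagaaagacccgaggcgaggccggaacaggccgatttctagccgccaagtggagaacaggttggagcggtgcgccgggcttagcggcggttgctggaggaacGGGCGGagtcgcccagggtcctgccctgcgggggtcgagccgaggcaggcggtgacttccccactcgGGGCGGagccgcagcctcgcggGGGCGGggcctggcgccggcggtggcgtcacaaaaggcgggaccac
CXCL12: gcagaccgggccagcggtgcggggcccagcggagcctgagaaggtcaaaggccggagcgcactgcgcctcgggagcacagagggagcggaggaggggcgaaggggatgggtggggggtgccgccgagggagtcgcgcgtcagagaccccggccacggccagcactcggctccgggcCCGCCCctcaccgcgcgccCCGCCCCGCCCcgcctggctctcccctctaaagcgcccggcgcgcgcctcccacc
CXCL8: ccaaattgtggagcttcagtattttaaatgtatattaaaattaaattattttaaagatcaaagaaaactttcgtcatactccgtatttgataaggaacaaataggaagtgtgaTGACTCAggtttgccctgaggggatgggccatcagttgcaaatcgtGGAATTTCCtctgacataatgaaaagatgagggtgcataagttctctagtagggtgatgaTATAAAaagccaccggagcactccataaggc

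All motifs were searched on both strands. The NRF1 motif, bound by nuclear respiratory factor 1, a known activator of the CXCR4 promoter, began 59 bases before the CXCR4 start, and 1.03% of 35116 windows of the same length held it. The TATA motif in CXCR4 began 32 and 30 bases before the start, as matches on opposite strands that overlap each other. Its share of all windows was 10.7%. MIF held 3 GC boxes and no TATA motif, and CXCL12 likewise held 3 GC boxes, of which the pair nearest the start share a base. CXCR4 also held 3 GC boxes, 135, 130 and 70 bases before its start, and CXCL14 held 4. GC boxes were found in 42.6% of all windows. CXCL8 held an AP-1 motif 137 bases, an NF-kB motif 91 bases and a TATA motif 31 bases before its start, motifs found in 4.2%, 17.1% and 10.7% of all windows. CXCR4 had an NF-kB match as well, 230 bases before its start, and CXCL14 and CCR2 each had an AP-1 match. Such matches are letters in a window and were not tested as binding sites. The hypoxia response core was searched only in the form ACGTG, held by 18.5% of windows. That form had no match in the first window of any member that has one. The form GCGTG, which the printed CXCR4 sequence holds, was not searched.

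Median-ratio size factors of the 3 libraries lay between 1 and 1.004. FPKM are already scaled for library size, so factors near 1 do not by themselves show that the libraries are alike. Summed FPKM were 1388319, 1456532 and 1374410 in replicates 1, 2 and 3. The reads behind the libraries were estimated from the even steps of low FPKM values at about 21700000, 28500000 and 43900000 in the same order. As for the labelled cell type, 8 of 8 sympathoadrenal neuroblast markers were called above 1 FPKM, from ISL1 at 103 FPKM to STMN2 at 2405 FPKM. For this and the marker counts that follow, 45.5% of all genes tested were called above. Immune cell markers were low, with 0 of 10 above and a summed level of 0.859 to 1.56 FPKM. CD14 (0.480 FPKM) was the highest of them, and AIF1, CD3E and ITGAM were listed at 0. Endothelial markers were low as well, with 0 of 6 above and a summed level of 0.211 to 0.483 FPKM. CLDN5 (0.289 FPKM) was the highest of these, and CDH5 was listed at 0. Both lists also gave 0 above at an unadjusted p under 0.05. Of 6 fibroblast markers, 4 were called above, with a summed level of 50.05 to 57.29 FPKM. PDGFRB (29.8 FPKM), DCN (14.7 FPKM), COL1A1 (3.79 FPKM) and LUM (3.95 FPKM) made up that count, and FAP was at 0 in replicates 2 and 3; the part of such cells in the results was not tested. Of 5 Schwann cell markers 0 were called above (0 also at an unadjusted p under 0.05), with a summed level of 4.75 to 6.04 FPKM. In RNA from whole cultures, few cells with much RNA of a gene and many cells with little cannot be told apart.

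Of the 10 members, 6 had a value above 0 and could be tested against a level of 1 FPKM with limma on log2(FPKM + 0.1). CXCR4, MIF and CX3CL1 were called above that level, CCL2, CXCL14 and CXCR2 below it, and CXCL12, ACKR3, CCR2 and CXCL8 were listed at 0 in all 3 libraries. Over all 31736 genes tested, 45.5% were called above and 43.7% below, so the members' split of 3 and 3 is near the background. With genes listed at 0 included, the median level was 0.0177 FPKM over the 10 members, against 5.38 FPKM over 19666 protein-coding genes. Without them it was 2.79 FPKM over the 6 members with a value, against 1.08 FPKM over all genes tested, so the order of the medians depends on whether genes at 0 are counted. Member levels ran from 0 to 899 FPKM, as the plot of members by library shows.

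**Figure D1:**
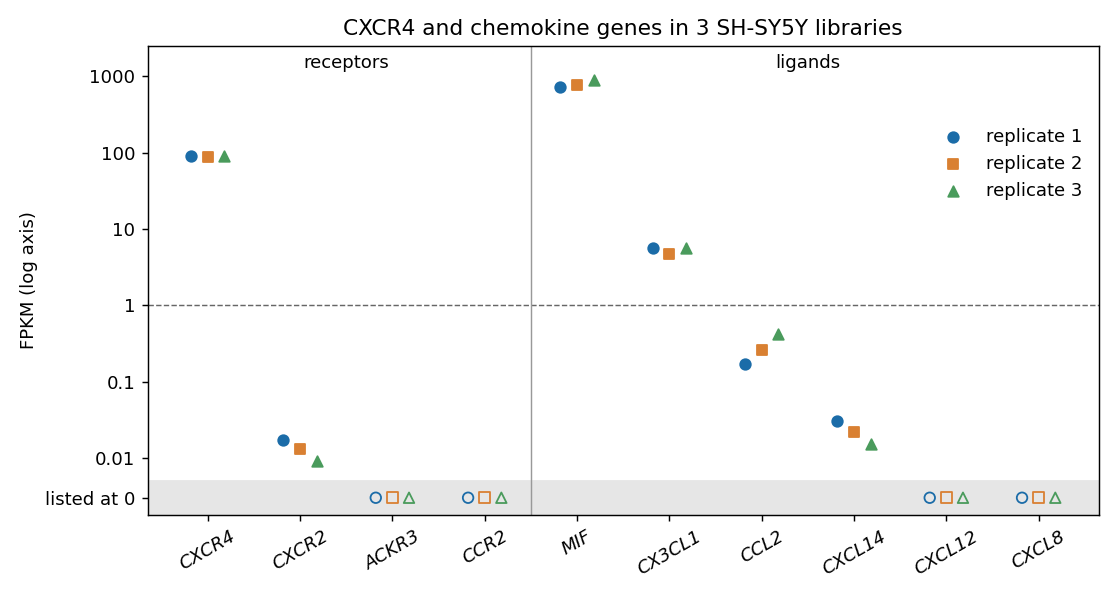
FPKM of the 10 members in each of 3 SH-SY5Y libraries, on a log axis, receptors left and ligands right, with open symbols in the grey band for values listed at 0 and a dashed line at 1 FPKM. CXCR4 lies between 88.0 and 91.2 FPKM and MIF between 721 and 899 FPKM, while ACKR3, CCR2, CXCL12 and CXCL8 sit at 0 in every library.

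Among the receptors, CXCR4 (ENSG00000121966, chromosome 2, 136114349 to 136118165, minus strand, GRCh38) had 91.2, 88.0 and 90.9 FPKM in replicates 1, 2 and 3. The libraries were nearly level, with the highest 1.04 times the lowest. Its mean of 90.1 ± 1.75 FPKM (SD, n = 3) was called above 1 FPKM with a log2 difference of 6.36 (SE 0.0658, limma adjusted p = 2.99e-05). CXCR4 ranked 1253 among 19666 protein-coding genes with 3 values, higher than 93.6% of them. The SD of its log2 values was 0.028, against a median of 0.078 for the 200 genes nearest to it in level, and 10.5% of those had a lower SD. The 3 protein-coding genes nearest to it over the 3 libraries, by Euclidean distance of log2(FPKM + 0.1), were CLDND1 (distance 0.025), GRINA (0.03) and ACTN1 (0.033).

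The nearest protein-coding neighbours of CXCR4 are DARS, which encodes a tRNA synthetase, 128248 bases to one side at 131 ± 3.28 FPKM, and THSD7B, 647379 bases to the other side at 0.0143 ± 0.00971 FPKM (SD, n = 3). No other annotated gene overlaps CXCR4 on either strand.

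The atypical CXCL12 receptor ACKR3 (ENSG00000144476, chromosome 2, 236567787 to 236582358) was listed at 0 in all 3 libraries. On its longest annotated transcript of 2203 bases, 3 reads would correspond to 0.069, 0.0525 and 0.0341 FPKM in replicates 1, 2 and 3, a floor that covers counting error only. Such a 0 may stand for an estimate that failed, and not only for an absence of reads. CCR2 (ENSG00000121807, chromosome 3, 46353734 to 46360928), the monocyte receptor for CCL2, was likewise listed at 0, with floors of 0.0559, 0.0425 and 0.0277 FPKM. CXCR2 (ENSG00000180871, chromosome 2, 218125289 to 218137253), the neutrophil receptor for CXCL8, had 0.017, 0.013 and 0.009 FPKM. It was called below 1 FPKM (log2 difference -3.28, SE 0.0685, limma adjusted p = 4.38e-05). On its annotated transcript of 2879 bases these values come to 0.99, 0.99 and 1.06 reads, that is, to 1 read in each library.

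Among the ligands, MIF (ENSG00000240972, chromosome 22, 23894004 to 23895227, plus strand) was the most abundant member. It had 721, 761 and 899 FPKM in replicates 1, 2 and 3, with replicate 3 the highest and the other two closer together. The mean of 794 ± 93.3 FPKM (SD, n = 3) was called above 1 FPKM with a log2 difference of 9.49 (SE 0.0988, limma adjusted p = 2.99e-05). MIF ranked 123 among the protein-coding genes, above 99.4% of them. Its libraries spread more than those of most genes at that level, with an SD of log2 values of 0.166 against a median of 0.083, and 85.5% of the 200 nearest genes had a lower SD. The nearest genes in level were the glycolytic enzyme genes ENO1 (distance 0.181; 802, 734 and 849 FPKM) and PGK1 (0.183; 814, 736 and 882 FPKM) and the respiratory chain subunit gene COX7C (0.197; 709, 813 and 799 FPKM).

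The MIF gene shares 802 bases (chromosome 22, 23894426 to 23895227) with MIF-AS1 on the other strand, which had 4.36, 3.73 and 3.704 FPKM. MIF was 202 times MIF-AS1 in mean level. No source used here states a strand setting, so reads of the shared bases could have been placed on either gene. The gene AP000350.4, annotated as protein-coding and overlapping MIF on the same strand, was listed at 0, and reads in MIF could have been placed on it too.

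CXCL12 (ENSG00000107562, chromosome 10, 44370165 to 44386493, minus strand), the chemokine that signals through CXCR4, was listed at 0 in all 3 libraries. On its longest annotated transcript of 3532 bases, 3 reads would correspond to 0.0415, 0.0315 and 0.0205 FPKM. CXCR4 was thus present at about 90.1 FPKM in libraries where both its cognate chemokine and the scavenger for that chemokine were listed at 0. CXCL8 (ENSG00000169429, chromosome 4, 73740506 to 73743716), or interleukin 8, was also listed at 0, with floors of 0.0919, 0.0698 and 0.0454 FPKM on a transcript of 1705 bases.

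CX3CL1 (ENSG00000006210, chromosome 16, 57372458 to 57385048), or fractalkine, is a membrane-bound chemokine of neurons that speaks to microglia through CX3CR1. It had 5.54, 4.69 and 5.68 FPKM, with replicate 2 somewhat below the other two, and a mean of 5.302 ± 0.537 FPKM (SD, n = 3). This was called above 1 FPKM (log2 difference 2.29, SE 0.0928, limma adjusted p = 0.000187) and put CX3CL1 at the middle of the protein-coding genes, higher than 49.9% of them. Against a level of 5 FPKM it was called neither above nor below (log2 difference 0.08, limma adjusted p = 0.466), within a range of 8.16e-05 to 0.466 over its alternatives. CX3CL1 lies between CCL22, 6267 bases away, and CCL17, 19718 bases away. CCL22 had 0, 0.026 and 0.025 FPKM and CCL17 was listed at 0, so in this small cluster CX3CL1 alone was called above the level.

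CCL2 (ENSG00000108691, chromosome 17, 34255218 to 34257203), which draws monocytes to tissue, had 0.172, 0.26 and 0.426 FPKM. The lowest value was in the library with the fewest reads and the highest in the library with the most; the part of depth was not tested. CCL2 was called below 1 FPKM (log2 difference -1.56, SE 0.225, limma adjusted p = 0.00605), and limma no longer called it when replicate 2 was left out (adjusted p = 0.0542) or at a level of 0.5 FPKM (adjusted p = 0.0574), within a range of 0.000484 to 0.0574 over its alternatives. The largest of its 3 values was 2.48 times the smallest. On the annotated transcript of 736 bases the values come to 2, 3.98 and 10.02 reads. The SD of the log2 values was 0.478, against a median of 0.428 for the 200 nearest genes. Its neighbour CCL7, 13017 bases away in the cluster of CC chemokines, was listed at 0.

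CXCL14 (ENSG00000145824, chromosome 5, 135570679 to 135579279), a constitutively made chemokine of skin and other epithelia, had 0.03, 0.022 and 0.015 FPKM. It was called below 1 FPKM (log2 difference -3.17, SE 0.0759, limma adjusted p = 5.51e-05). On the annotated transcript of 1760 bases these values come to 1.02, 0.98 and 1.03 reads. The libraries thus differed in FPKM at about 1 estimated read each. SLC25A48 and AC034206.1, which overlap CXCL14 on the other strand, were listed at 0. The transcripts used for these read estimates are the annotated ones whose length came nearest to whole reads. In genes with 1 annotated transcript no such choice is needed. There the estimate came within 0.1 of a whole read for 97.5% of 2088 low values in replicate 1. The share was 97.3% of 1739 in replicate 2 and 97.2% of 1214 in replicate 3. Each library's read number was chosen to make this same share high, so it is no independent check of the estimates.

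**Figure D2:**
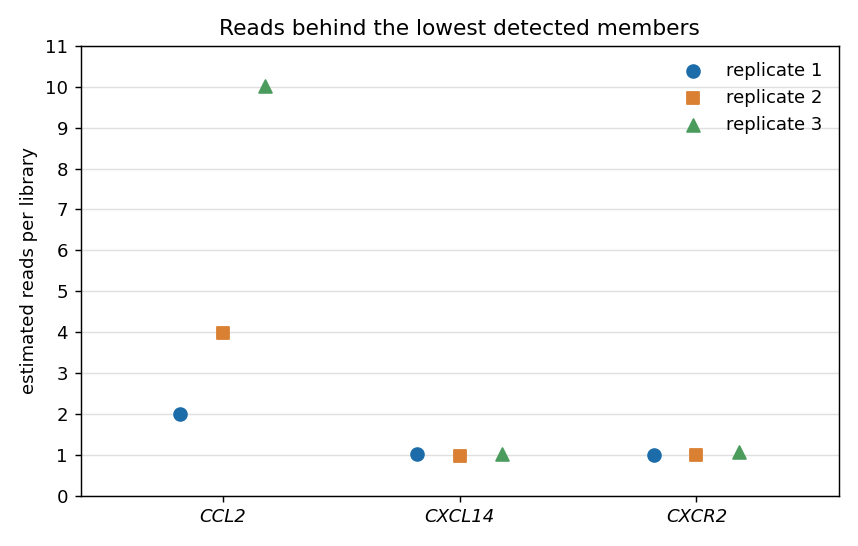
Estimated reads behind the FPKM of CCL2, CXCL14 and CXCR2 in each library, on a linear axis that starts at 0. CCL2 rests on about 2, 4 and 10 reads in replicates 1, 2 and 3, and CXCL14 and CXCR2 on about 1 read in each library.

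The order of levels was MIF, CXCR4, CX3CL1, CCL2, CXCL14, CXCR2, and then the 4 genes listed at 0. Neighbours in this order had ranges that did not overlap, except CXCL14 (0.015 to 0.03 FPKM) and CXCR2 (0.009 to 0.017 FPKM), whose ranges overlapped. Within libraries, MIF exceeded CXCR4 by 3.13 ± 0.16 on the log2 scale (SD, n = 3), a ratio of mean levels of 8.81, in 3 of 3 libraries. CXCL14 lay below CXCR4 with a log2 difference of -9.53 ± 0.09, did so in 3 of 3 libraries and rests on about 1 read. That size depends on the pseudocount, at -6.48 with 1 FPKM added and -11.47 with 0.01 FPKM. CX3CL1 exceeded its receptor gene CX3CR1 (0, 0.024 and 0.016 FPKM) in 3 of 3 libraries as well. Of 10 gene pairs compared, 9 had a value, and all 9 had 1 sign in every library. For CXCR4 with ACKR3, CXCR4 with CXCL12, CCL2 with CCR2 and CXCL8 with CXCR2 that sign was fixed. In each of these, 1 gene was listed at 0 and the other was above 0 in every library. In the pair of CXCL8 and CXCR2, the gene above 0 rests on about 1 read. With 3 libraries, an exact sign-flip test, two-sided, cannot fall below p = 0.25, and it gave exact p = 0.25 for each of the 9 (0.25 after Benjamini-Hochberg adjustment), so none passed the threshold. For pairs with a gene listed at 0 no fold is given.

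The rest of the chemokine system was low beside CXCR4. Of 23 chemokine receptor genes (the 4 members and 19 others), 12 were listed at 0 in all libraries, and CXCR4 held 98.1%, 98.2% and 97.9% of their summed FPKM in replicates 1, 2 and 3. None of the 19 other receptors was called above 1 FPKM by limma (0 also at an unadjusted p under 0.05), where 45.5% of all genes tested were called above. Of the 9 tested, 8 were called below, where 43.7% of all genes tested were called below. The other 10 were listed at 0, as were 14.9% of protein-coding genes. The remaining tested gene was ACKR1, the Duffy antigen receptor, a decoy for many inflammatory chemokines. ACKR1 had 1.31, 0.903 and 1.16 FPKM, around the level, and was called neither above nor below (log2 difference 0.14, limma adjusted p = 0.371). CXCR4 was 80.1 times ACKR1 in mean level. Next came CCR10, a receptor of skin-homing lymphocytes, at 0.342 ± 0.115 FPKM, ACKR2 at 0.132 FPKM and CXCR6 at 0.052 FPKM, all called below. CCR7 had 0, 0.06 and 0.055 FPKM, and the lowest with a value was CCR3 (0, 0 and 0.013 FPKM). CXCR1, the paralog of CXCR2 that also binds CXCL8, was listed at 0.

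Chemokine genes other than CX3CL1 stayed low. Of 44 chemokine ligand genes (5 members, with MIF not counted, and 39 others), 32 were listed at 0 in all libraries. CX3CL1 held 78.3%, 71.2% and 78.5% of their summed FPKM and was 12.7 times the next, CCL27. None of the 39 others was called above 1 FPKM by limma (0 also at an unadjusted p under 0.05), where 45.5% of all genes tested were called above. All 9 of them that were tested were called below, where 43.7% of all genes tested were, and 30 were listed at 0. The highest were CCL27 (0.387, 0.426 and 0.443 FPKM), a skin chemokine that acts on CCR10, and CXCL16 (0.425, 0.404 and 0.322 FPKM), which like CX3CL1 is made as a membrane protein. CCL16 (0.196 ± 0.0278 FPKM) and CCL5 (0.174 FPKM) followed, then CCL28 (0.076, 0.126 and 0.023 FPKM), and XCL1 (0, 0.03 and 0 FPKM) was the lowest with a value. The lists hold many of the inducible chemokines, and the interferon-induced genes CXCL9, CXCL10 and CXCL11 were listed at 0. Of 19666 protein-coding genes, 14.9% were listed at 0.

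The genes listed at 0 were spread over the family's chromosomes. On chromosome 4, 12 of 13 chemokine genes were listed at 0, CXCL8 among them, and the highest was CXCL13 at 0.0577 FPKM. On chromosome 17, 10 of 15 were listed at 0, and the members of the CC cluster there with a value included CCL2 and CCL5. Of 13 receptor genes on chromosome 3, where CCR2 lies, 7 were listed at 0, and the highest was ACKR2. These counts stand beside 32 of 44 ligand genes and 12 of 23 receptor genes listed at 0 in all, and no difference between chromosomes was tested.

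**Figure D3:**
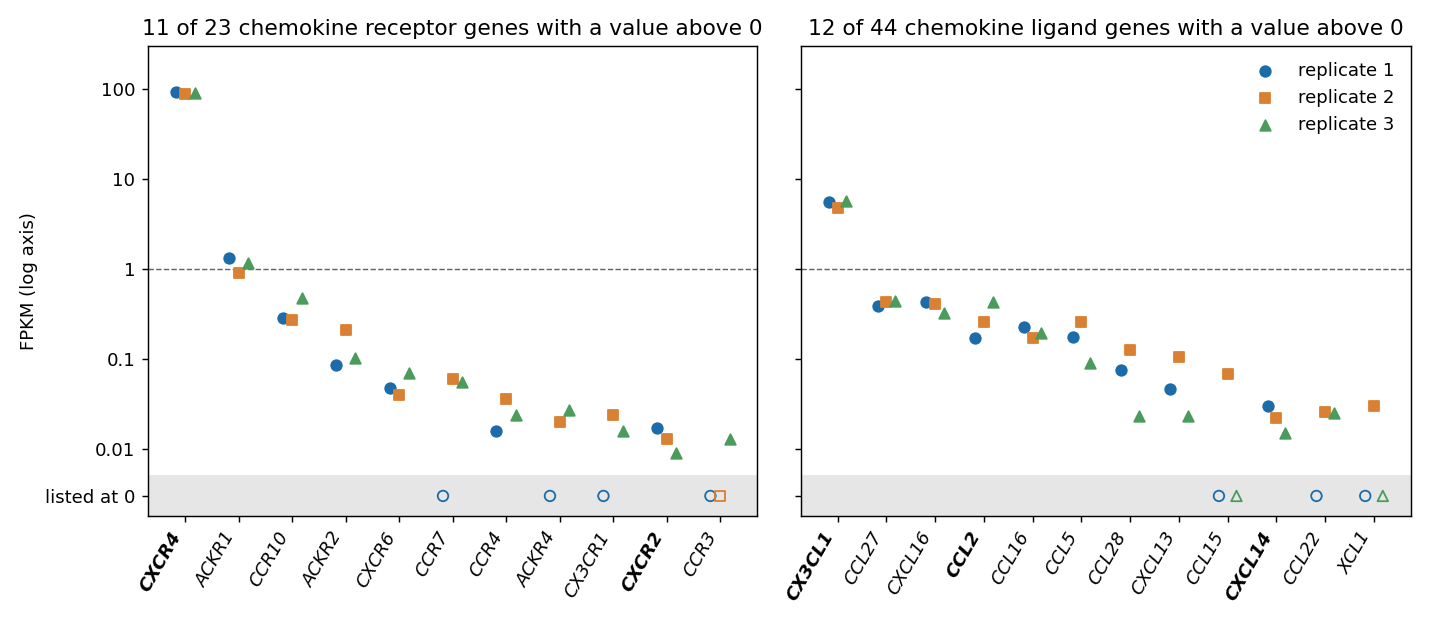
FPKM in each library of the chemokine receptor genes (left, 11 of 23) and chemokine ligand genes (right, 12 of 44, without MIF) that had a value above 0, on log axes, with members in bold, open symbols for values listed at 0 and a dashed line at 1 FPKM. CXCR4 is 80.1 times the next receptor gene ACKR1, and CX3CL1 is 12.7 times the next ligand gene CCL27.

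The genes through which CXCR4 is known to act were, in contrast to its ligand, nearly all expressed. Of 27 genes of CXCR4 signalling and turnover, limma called 26 above 1 FPKM and 1 below. Over all genes tested, noncoding genes among them, 45.5% were called above. The share among protein-coding genes alone was not computed. The median level of the 27 genes was 44.4 FPKM, against 1.08 FPKM over all genes tested and 5.38 FPKM over protein-coding genes. The G protein beta subunit genes GNB1 (477 ± 14.3 FPKM) and GNB2 (337 ± 5.29 FPKM) were highest, followed by the late endosome GTPase gene RAB7A (319 ± 29.4 FPKM). HGS (199.6 ± 6.54 FPKM), whose product sorts ubiquitinated receptors to degradation, and RAC1 (185 ± 9.103 FPKM), a GTPase of cell motility, completed the 5 highest. The inhibitory alpha subunits, which couple the receptor to its pathway, had 40.6 ± 3.06 FPKM for GNAI1, 35.9 ± 3.83 FPKM for GNAI2 and 5.83 ± 0.252 FPKM for GNAI3 (SD, n = 3). Receptor kinases that phosphorylate CXCR4 for arrestin binding were led by GRK3 (74.5 ± 3.07 FPKM), ahead of GRK6 (45.0 ± 2.68 FPKM) and GRK2 (36.96 ± 5.701 FPKM). ARRB2 (43.3 ± 0.548 FPKM) exceeded ARRB1 (13.8 ± 2.12 FPKM), the other beta-arrestin gene, without overlap between libraries. ITCH, the ubiquitin ligase that marks CXCR4 for degradation, had 14.03 ± 1 FPKM.

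The gene of that list called below was DOCK2, an activator of RAC proteins in blood cells, with 0, 0 and 0.131 FPKM. Its partner gene ELMO1 had 112, 124 and 120 FPKM. The plot of signalling genes sets all of them beside CXCR4.

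**Figure D4:**
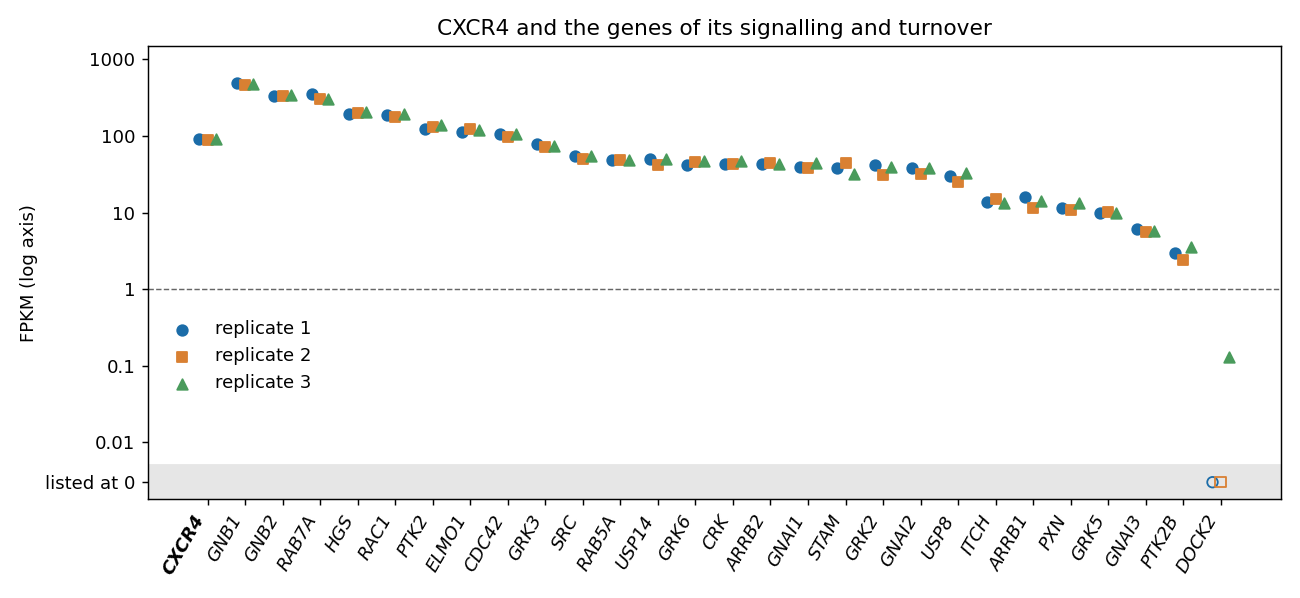
FPKM of CXCR4 (bold, left) and 27 genes of its signalling and turnover in each library, sorted by mean level on a log axis, with open symbols for values listed at 0 and a dashed line at 1 FPKM. All but DOCK2 lie above 1 FPKM in every library, from PTK2B at 2.37 to 3.596 FPKM to GNB1 at 463 to 492 FPKM.

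The partners of MIF were uneven. CD74, the receptor that binds MIF, had 0.089, 0.382 and 0.159 FPKM and was called below 1 FPKM (log2 difference -1.94, SE 0.317, limma adjusted p = 0.00863). CD44, which signals together with CD74, had 2.25, 3.17 and 3.38 FPKM and was called above (log2 difference 1.44, limma adjusted p = 0.00255). MIF itself was 7.82 times its paralog DDT in mean level, a log2 difference of 2.96 ± 0.21 in 3 of 3 libraries, and MIF exceeded CD74 by 11.43 ± 0.70 on the log2 scale. DDT had 108, 95.2 and 101 FPKM. The copy DDTL had 0.723, 1.09 and 1.02 FPKM, and reads shared by DDT and DDTL could have been split between them. COPS5, whose product binds MIF inside cells, had 35.7 ± 1.56 FPKM.

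For regulators of CXCR4 transcription, 5 of 5 genes passed as above 1 FPKM and their median was 35.7 FPKM. Over all genes tested, noncoding genes included, 45.5% were called above and the median was 1.08 FPKM. HIF1A, the oxygen-sensitive factor that induces CXCR4 in hypoxia, had 239 ± 12.6 FPKM, and EPAS1, its relative, 33.1, 28.9 and 45.2 FPKM, with replicate 3 the highest. YY1, a repressor of the CXCR4 promoter, had 57.2 ± 1.397 FPKM, ARNT 26.99 ± 2.18 FPKM, and NRF1, whose motif is marked in the CXCR4 sequence above, 9.63 ± 0.984 FPKM (SD, n = 3). These are mRNA levels, and the activity of the factors was not measured.

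Among 7 genes of enzymes that cut chemokines, 3 were listed at 0 and 4 were tested. Limma called 3 of the 4 above 1 FPKM and 1 below, where 45.5% of all genes tested were called above. ADAM10 (82.7 ± 1.98 FPKM) and ADAM17 (30.7 ± 0.211 FPKM), the proteases that shed CX3CL1 from the cell surface, were both called above (limma adjusted p = 2.99e-05 for each). MMP2, which can cleave CXCL12, had 318 ± 7.42 FPKM, while MMP9 was called below at 0.161 ± 0.0471 FPKM. DPP4, the peptidase that inactivates CXCL12, and the neutrophil protease genes CTSG and ELANE were listed at 0.

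Of 10 inducers of CCL2 and CXCL8, limma called 5 above 1 FPKM and 2 below, and 2 were listed at 0. The count above was 5 of the 8 genes tested, where 45.5% of all genes tested were called above. The NF-kB subunit genes RELA (64.7 ± 3.09 FPKM), NFKB1 (8.28 ± 0.570 FPKM), NFKB2 (6.19 ± 0.726 FPKM) and REL (3.09 ± 0.380 FPKM) were called above, as was the TNF receptor gene TNFRSF1A (15.3, 9.23 and 11.6 FPKM). RELB (1.06 ± 0.196 FPKM) was called neither (limma adjusted p = 0.678). The cytokine genes TNF and IL6 were listed at 0, IL1B had 0.054 FPKM in replicate 2 and 0 in the others, and the interleukin 1 receptor gene IL1R1 had 0.0153 ± 0.011 FPKM.

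The windows upstream of the members differed in base composition. RefSeq windows were matched for 7 of 10 members, and ACKR3, CCL2 and CX3CL1 were not matched. The CpG content, as observed over expected, was 0.949 upstream of the first listed CXCR4 start and 0.943 upstream of MIF, against a median of 0.558 over all 35116 windows. CXCL14 (1.05) and CXCL12 (0.815) were also above that median, while CXCL8 (0.47), CXCR2 (0.439) and CCR2 (0.219) were below it. The members with a high CpG content therefore included the abundant CXCR4 and MIF and also CXCL14 and CXCL12, at about 1 read per library and at 0. GC content ran from 37.6% for CXCL8 to 78.0% for CXCL12, with 68.0% for CXCR4 and 70.4% for MIF and a median of 58.0% over all windows. CXCR4 has 3 annotated starts in that table, and the other two windows had CpG values of 0.633 and 0.51. These are descriptions of 7 genes, with no test.

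**Figure D5:**
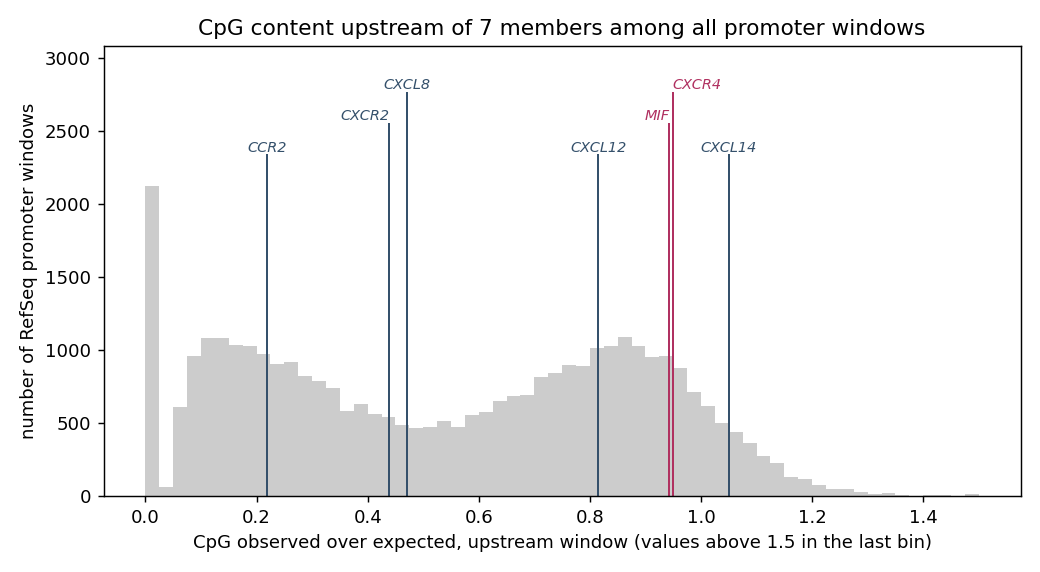
Histogram of CpG observed over expected in the 250 bases upstream of 35116 RefSeq starts, with vertical lines at the values of 7 members (CXCR4 and MIF in red). CXCR4 (0.949) and MIF (0.943) lie in the high-CpG hump together with CXCL12 (0.815) and CXCL14 (1.05), and CCR2, CXCR2 and CXCL8 lie at or below 0.47.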

How the data were processed

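SH-SY5Y RNA was measured in 3 libraries of 1 group. The submitters' processing notes name Cufflinks 2.2.1, TopHat2 2.1.1, FastQC 0.10.1, bcl2fastq and the build hg38; no source used here gives their roles, the annotation or the strand setting. The authors deposited 1 FPKM value per gene and library. Identifiers were joined to GENCODE 29 on GRCh38 (57046 of 60660 matched); a name shared by several identifiers took the one with the highest mean.

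All genes above 0 in 1 or more libraries, with values in at least 2, were tested with limma 3.58.1 (R 4.3.3) on log2(FPKM + 0.1) against 1 FPKM, moderated and two-sided, with Benjamini-Hochberg adjusted p under 0.05 over all genes. The fit was tested on simulated data built from genes above 0 in every library, with set levels near 1 FPKM. That trial does not cover genes at 0 in some library or at about 1 read. The added 0.1 makes differences of low genes smaller than they are. Separate flasks of 1 line supply the spread, so p-values measure only that. Depth was read from the steps of low values in transcripts of at least 600 bases, assuming fragments of 200 bases. Other steps used Python 3.11.15, pandas 2.3.3 and scipy 1.17.1.

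The members and lists were chosen with earlier results of these data known. Named are all members, of each other list except the cell type markers the 5 highest and the lowest above 0, genes of the pairs, genes nearest in level to CXCR4 and MIF, and overlapping genes. Others, among them neighbours, DDTL, cell type markers and genes listed at 0, were named after their values were seen. ACKR3 was also due for nearest genes, but at 0 it has none that can be ranked. Alternatives were other pseudocounts, levels, filters, TPM, a median-ratio rescaling, each library left out and calls without a test.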

Additional observations from a re-analysis of the deposited data

How the results depend on the processing

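Under the alternatives run, 61 of 64 tests of the 6 tested members kept their direction and their side of the threshold, and none turned. The exceptions were CCL2 at a level of 0.5 FPKM (log2 difference -0.69) and without replicate 2 (-1.54), and CX3CL1 at a level of 5 FPKM (0.08). The number of members called below 1 FPKM was 3; it was 1 with a mean filter of at least 0.1 FPKM, which leaves out CXCL14 and CXCR2 as untested, and 7 with no filter, which adds the 4 genes listed at 0. Among other receptors, 1 gene was called above at a level of 0.5 FPKM, against 0 at 1 FPKM; of the inflammatory inducers, a level of 5 FPKM left 3 called above, against 5. All 35 recomputed pair differences kept their sign. None could turn, because each pair had 1 sign in every library and each alternative keeps the order of genes within a library. The kept signs are therefore no check of the pairs. Sizes with a low gene moved with the pseudocount (1 and 0.01 FPKM): CX3CL1 minus CX3CR1 was 2.63 and 8.0 around 5.58, MIF minus CD74 9.36 and 12.04 around 11.43, and CXCL14 against 1 FPKM -0.97 and -4.99 around -3.17. Before the 0.1 was added, rescaling to TPM shifted log2 values above 0 FPKM by -0.473, -0.543 and -0.459 in replicates 1, 2 and 3. After it was added, low genes moved less. Against 1 FPKM, CXCR4 went from 6.36 to 5.87 and CXCL14 from -3.17 to -3.25. No paired comparison of groups was possible because the libraries form 1 group. Pairing was used only for genes within a library. Depth limits the members with about 1 read per library and those listed at 0.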
